A study of Mus musculus with 4 samples.

Results

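The genes described here are 10 that drive the passage from G1 into S phase. They are the D cyclins Ccnd2 and Ccnd3, the E cyclins Ccne1 and Ccne2, the kinases Cdk2, Cdk4 and Cdk6, and the activating transcription factors E2f1, E2f2 and E2f3. They were chosen by name, with earlier results of these data known. Every gene probe whose transcript accession maps to one of these symbols was taken, which gave 18 probes for the 10 genes. All 10 entered the comparison among 21045 genes tested, and 16 of the 18 probes passed the filter on dim signal. RNA was measured on 4 one-colour oligonucleotide arrays, 2 of lineage-negative CD44+ cells and 2 of lineage-negative CD44- cells. Both kinds of cell were sorted from gastric tumours of K19-Wnt1/C2mE mice aged 30 weeks. In these mice a keratin 19 promoter drives Wnt1 and the prostaglandin E2 enzymes Ptgs2 and Ptges in gastric epithelium, and both groups carry all of these transgenes. Each value therefore compares sorted tumour cells with each other and not with normal stomach. Which lineage markers were used, and whether an array holds cells of 1 mouse or of several, was not stated in the sources used here, so errors and p-values cover only the spread among these arrays, which may be technical.

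D cyclins are made in response to mitogens and activate Cdk4 and Cdk6, which phosphorylate the retinoblastoma protein and its relatives. These pocket proteins otherwise hold E2F factors inactive. Released E2f1, E2f2 and E2f3 switch on genes of DNA synthesis together with the E cyclins, which activate Cdk2 and complete the phosphorylation of the pocket proteins. E2f4 to E2f8 act mostly as repressors, and the atypical members E2f7 and E2f8 are themselves induced late in G1 and in S phase. In the glandular stomach, division is normally concentrated among progenitors of the isthmus. CD44, a receptor for hyaluronan, is widely used to sort cells with tumour-initiating capacity.

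E2F factors recognise a short GC-rich site, and the start regions of Ccne1, E2f2 and E2f3 are shown with any such site in capitals. These are examples, and the windows of the other members are not shown. The letters searched were TTTCCCGC, TTTCGCGC, TTTGCCGC and TTTGGCGC on both strands. TTTCGCGC overlaps its own reverse complement and can therefore be found on both strands at nearly the same place. Each window runs from 250 bases before to 50 bases after the annotated RefSeq start (GRCm38.p6), and 8 of the 10 genes matched a window by symbol. The windows are Ccne1 at chr7:38107441-38107740 (minus strand), E2f2 at chr4:136172024-136172323 (plus strand) and E2f3 at chr13:29986014-29986313 (minus strand), each written 5′ to 3′ on the strand of its gene.
Ccne1: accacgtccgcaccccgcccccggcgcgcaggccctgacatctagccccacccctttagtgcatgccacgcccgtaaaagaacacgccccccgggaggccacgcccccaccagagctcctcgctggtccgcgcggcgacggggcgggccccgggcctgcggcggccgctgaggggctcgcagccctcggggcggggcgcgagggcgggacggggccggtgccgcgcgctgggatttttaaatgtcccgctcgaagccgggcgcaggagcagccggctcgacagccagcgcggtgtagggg
E2f2: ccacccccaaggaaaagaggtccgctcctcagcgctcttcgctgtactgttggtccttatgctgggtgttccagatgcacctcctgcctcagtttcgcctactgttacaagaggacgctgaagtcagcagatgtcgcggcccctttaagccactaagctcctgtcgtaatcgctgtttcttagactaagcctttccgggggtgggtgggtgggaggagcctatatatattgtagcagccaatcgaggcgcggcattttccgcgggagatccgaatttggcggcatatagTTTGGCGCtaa
E2f3: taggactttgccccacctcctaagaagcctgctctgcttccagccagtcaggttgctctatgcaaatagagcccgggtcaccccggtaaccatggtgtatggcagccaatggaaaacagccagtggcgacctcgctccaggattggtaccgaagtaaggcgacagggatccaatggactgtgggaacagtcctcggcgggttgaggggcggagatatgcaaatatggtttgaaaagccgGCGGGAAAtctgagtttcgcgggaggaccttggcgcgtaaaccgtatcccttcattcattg
In E2f2 the match TTTGGCGC began at base 40 after the start, and in E2f3 the match, read as GCGGGAAA on the gene's strand, began 11 bases before it. E2f2 and E2f3 have a second annotated start each, inside the gene, whose windows held no match. The window of Ccne1 did not hold these letters. For E2f1 and Cdk6 the table gives only a start inside the annotated gene, 466 bases into E2f1, so the region before the outer start of these genes was not searched and their windows are not shown. Of the 6 members with a window at the outer start, 3 held a match (Cdk2, E2f2 and E2f3). Over all windows, inner starts included, 704 of 27025 genes (2.60%) held one. A match is a description of letters and not of a bound site.

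The arrays differed in brightness and in admixture. The 75th percentile of probe signal, to which each array was scaled, was 243.8 and 492.6 on CD44+ replicates 1 and 2 and 406.3 and 526.6 on CD44- replicates 1 and 2. Signals below are log2 of the processed intensity relative to that percentile, so 0 is the 75th percentile of the array, and differences are CD44+ minus CD44-. The sort marker Cd44 was at 6.31 and 6.54 on the CD44+ arrays and at 4.26 and 5.11 on the CD44- arrays. All 7 epithelial markers were well above background on every array. CD44- replicate 2 stood apart. The summed signal of 8 fibroblast markers, as a multiple of the 75th percentile, was 456 there, against 68.2 on CD44- replicate 1 and 7.78 and 42.9 on the CD44+ arrays. That of 7 endothelial markers was 108 against 5.46, 0.755 and 1.49, and that of 7 epithelial markers was 853 against 1980, 2180 and 1560. Results that rest on CD44- replicate 2 are therefore given with and without it. Of the endothelial genes, Tek (log2 difference 0.30) overlapped between groups. The epithelial sum was made up mostly of Krt8, Krt18 and Krt19. For 4 of the 7 epithelial genes both CD44+ arrays lay above both CD44- arrays, as for 22.4% of all genes tested. Epcam was at 4.7 and 4.7 against 3.3 and 2.7. Cldn7 was at 6.4 and 6.6 against 4.8 and 4.6, so both CD44- arrays were low. Summed enteroendocrine markers (6 genes) were at 1.23 and 3.74 on the CD44+ arrays against 302 and 704 on the CD44- arrays, although Gast (log2 difference -0.74) overlapped between groups. Squamous markers (5 genes) were at 13.5 and 1.28 against 204 and 348, although Ivl went the other way (log2 difference 1.60, groups apart). Mast cell markers (7 genes) were at 10.5 and 14.9 against 3.39 and 3.12. Among them the proteases Mcpt1, Mcpt2, Mcpt4 and Cma1 were apart higher, while Kit (0.057) and Fcer1a (0.13) overlapped between groups. Summed signals of 6 pan-leukocyte genes lay between 3.54 and 5.85 on all arrays, a sum made up mostly of Lcp1. Within that list Cd53 was below the background limit on both CD44- arrays. It entered the test through the CD44+ arrays, where it was higher (adjusted p = 0.0241 by limma). Laptm5 (log2 difference -1.48) passed the limit on 1 CD44+ array only and entered through the CD44- arrays, where it was higher. The directions of Cd53 and Laptm5 therefore support nothing. Ptprc (-0.66), well above background on every array, was apart in the lower direction. Summed signals of 4 macrophage genes were 11.7 and 1.51 against 18.0 and 22.1, a sum made up mostly of Lyz2. Csf1r (log2 difference 0.33) and C1qa (0.17) overlapped between groups, and Adgre1 was not well above background on any array. On both CD44+ arrays the fibroblast gene Dpt, the endothelial gene Pecam1 and the squamous gene Krtdap failed the scanner's background test. The part of these other cells in the results below was not tested.

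In CD44+ cells the signal of both E cyclins, of E2f1, of E2f2 and of Cdk4 was higher on both arrays than on either CD44- array. The signals of Ccnd2, Ccnd3, Cdk2, Cdk6 and E2f3 overlapped between the groups. The largest difference was that of Ccne1, 3.52-fold, followed by E2f2 at 2.34-fold and E2f1 at 2.32-fold. The groups were thus apart in the higher direction for 5 of the 10 genes, where 22.4% of all genes tested were. None was apart in the lower direction, against 17.2%. By limma, 0 of the 10 passed at a Benjamini-Hochberg adjusted p under 0.05 over all genes, where 0.399% of genes did, and 2 (Ccne1 and E2f1) had an unadjusted p under 0.05 in the higher direction, where 2.86% did. The difference was above 0 for 8 of the 10 genes and for 60.6% of all genes. The median log2 difference of the 10 was 0.73, against 0.16 over all genes. Leaving out CD44- replicate 2 gave 0.16 for the 10 genes and 0.045 for all genes. Leaving out CD44- replicate 1 gave 0.89 for the 10 genes and 0.26 for all genes. With 2 arrays per group no exact test over arrays can give a two-sided p below 0.333. In bulk RNA, more cells in cycle and more RNA per cell cannot be told apart.

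**Figure D1:**
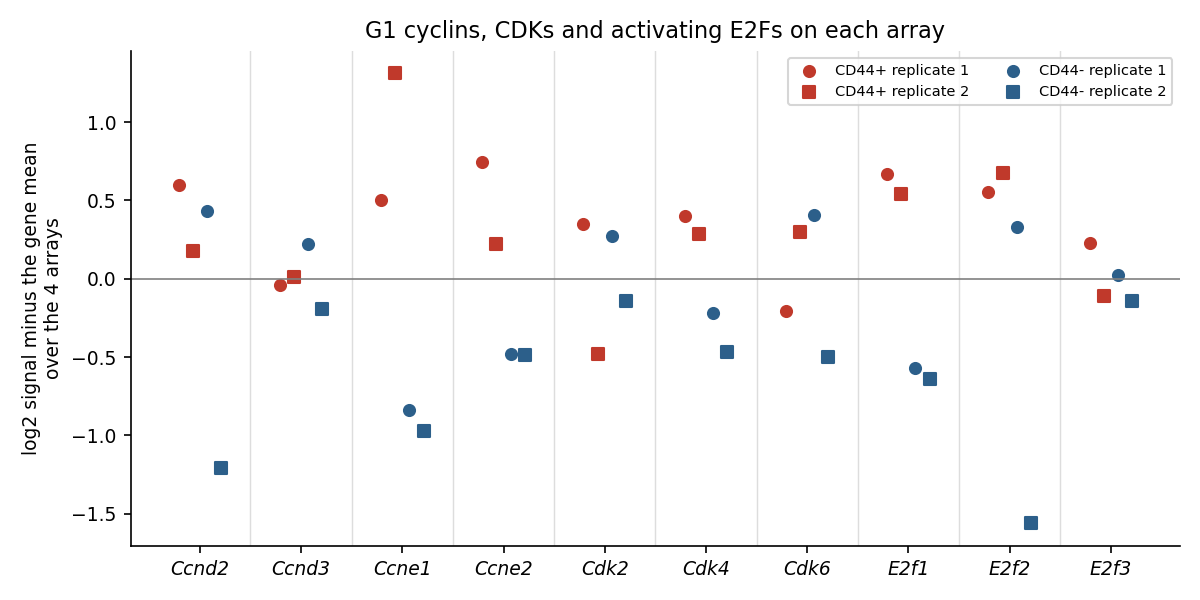
Log2 signal of each of the 10 genes on each array, centred on the gene's own mean over the 4 arrays, with CD44+ arrays in red and CD44- arrays in blue. For Ccne1, Ccne2, Cdk4, E2f1 and E2f2 both red points lie above both blue points. For Ccnd2 and E2f2 CD44- replicate 2 alone lies far below the others.

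Ccne1, the E cyclin with the larger difference, had processed signals of 1038 and 3682 on the CD44+ arrays and of 682.4 and 806.9 on the CD44- arrays before scaling. Relative to the 75th percentile these were log2 values of 2.09 and 2.90 against 0.75 and 0.62. The CD44+ arrays were both higher, and CD44+ replicate 2 was the highest. The log2 difference was 1.81 ± 0.48 (SE, n = 2 arrays per group), with a 95% interval from 0.70 to 2.92 and an adjusted p of 0.182 by limma. It stood at the 99.2nd percentile of all genes and ranged from 1.41 to 2.22 with 1 array left out. Over all alternatives its adjusted p ranged from 0.0073 to 0.507. A second Ccne1 probe, much dimmer, gave log2 values of -1.65 and -1.83 against -3.22 and -3.12 and a difference of 1.43 ± 0.44, so the 2 probes showed the same order of groups. Replicate 2 was the higher CD44+ array with the first probe and the lower with the second.

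Ccne2, the other E cyclin, was dim. Its brighter probe was at -2.85 and -3.37 on the CD44+ arrays and at -4.07 and -4.08 on the CD44- arrays. The CD44- arrays lay close together and both CD44+ arrays lay above them. The log2 difference was 0.96 ± 0.45 (1.95-fold, adjusted p = 0.528 by limma). The second Ccne2 probe, named for another transcript of the gene, gave -2.25 and -4.50 against -4.68 and -4.58. There CD44+ replicate 1 alone was high, and CD44+ replicate 2 lay just above the CD44- arrays. Cdk2, the kinase partner of the E cyclins, was near background. Its brighter probe was at -4.01 and -4.84 on the CD44+ arrays, where only CD44+ replicate 2 was well above background, and at -4.09 and -4.50 on the CD44- arrays. It entered the test through the CD44- arrays alone. Its groups overlapped, with a log2 difference of -0.13 ± 0.49 whose sign turned with quantile normalization and with normexp background correction. Its second probe was not well above background on any array.

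E2f1, the founding member of the E2F family and an activator of S phase genes, was at -0.71 and -0.83 on the CD44+ arrays and at -1.95 and -2.02 on the CD44- arrays. The CD44+ arrays lay 0.12 apart and the CD44- arrays 0.070 apart, and the groups did not overlap. The log2 difference was 1.21 ± 0.44 (95% interval 0.21 to 2.22, adjusted p = 0.33 by limma), and it ranged only from 1.15 to 1.27 with 1 array left out. The error of the fit is larger than the replicates' own spread, since limma draws each gene's variance towards that of all genes. A second E2f1 probe is printed at 10 spots of each array, which gives the measurement error within an array. Over these spots it was at -2.70 ± 0.086 (SD, 9 spots, 1 left out as an outlier) on CD44+ replicate 1 and at -3.31 ± 0.13 (SD, 10 spots) on CD44+ replicate 2. On the CD44- arrays it was at -4.04 ± 0.21 and -3.98 ± 0.10 (SD, 10 spots each). After scaling, the lowest CD44+ spot, at -3.51, lay above the highest CD44- spot, at -3.84. Before scaling, the spots ran from 34.5 to 41.2 and from 43.2 to 59.6 on the CD44+ arrays. On the CD44- arrays they ran from 18.0 to 28.4 and from 29.2 to 36.6. Unscaled spots of CD44+ replicate 1 and CD44- replicate 2 thus overlapped. The CD44+ arrays differed from each other by more than the spots of either array spread. Spots of 1 array share 1 RNA sample and are not replicates of a group. This probe gave a log2 difference of 1.00 ± 0.46.

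**Figure D2:**
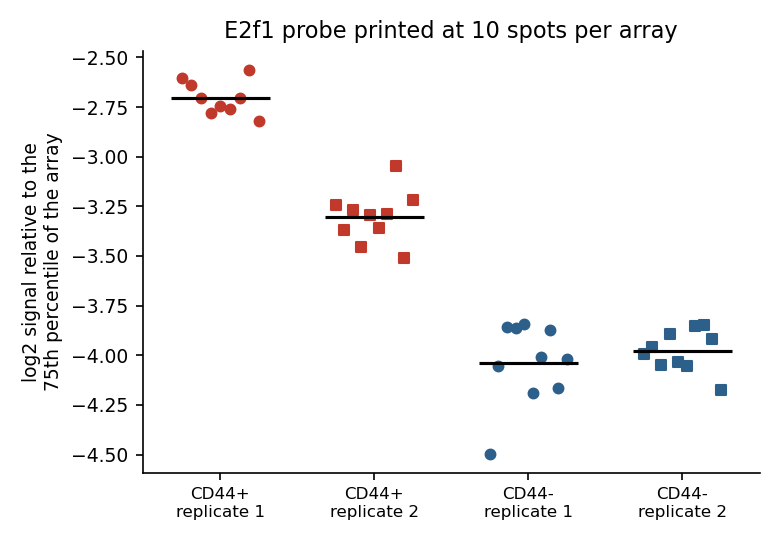
Log2 signal of the E2f1 probe printed at 10 spots, relative to the 75th percentile of each array, with a line at the mean of each array and outlier spots left out. All CD44+ spots (red) lie at -3.51 or above and all CD44- spots (blue) at -3.84 or below.

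E2f2, a second activator, had processed signals of 712.4 and 1571 on the CD44+ arrays and of 1020 and 355.7 on the CD44- arrays. After scaling these were 1.55 and 1.67 against 1.33 and -0.57. CD44- replicate 1 lay just under the CD44+ arrays and CD44- replicate 2 lay far below all others. The log2 difference of 1.23 ± 0.64 (adjusted p = 0.608 by limma) therefore rests on CD44- replicate 2. Leaving that array out gave 0.28. Leaving out CD44- replicate 1 in its place gave 2.18, which passed (adjusted p = 0.0259 by limma). E2f3, the third activator, was at -2.46 and -2.79 against -2.66 and -2.83. Its groups overlapped, with a log2 difference of 0.12 ± 0.45 and a 95% interval from -0.91 to 1.14. The sign turned with a 75th percentile taken over detected probes. A second E2f3 probe near background gave -0.42 ± 0.45. E2f1 and E2f3 were thus set apart within arrays. Their ratio, which 1 scaling factor per array cannot alter, was 2.13-fold higher in CD44+ cells, with both CD44+ arrays above both CD44- arrays. Other processing can alter it. Quantile normalization gave log2 differences of 1.25 for E2f1 and 0.20 for E2f3, and normexp gave 0.91 and 0.22.

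Ccnd2, a D cyclin induced by mitogens, had processed signals of 15480 and 23350 on the CD44+ arrays and of 22920 and 9534 on the CD44- arrays. After scaling these were 5.99 and 5.57 against 5.82 and 4.18. CD44- replicate 1 lay between the CD44+ arrays and CD44- replicate 2 lay below all. The log2 difference was 0.78 ± 0.61 (adjusted p = 0.776 by limma), and leaving out CD44- replicate 2 or 1 gave -0.040 or 1.60. All 3 Ccnd2 probes had CD44- replicate 2 as the lowest array, with differences from 0.44 to 0.78. Ccnd3 was at 1.29 and 1.35 against 1.56 and 1.14. Both CD44+ values fell between the CD44- values, with a log2 difference of -0.031 ± 0.45 (95% interval -1.06 to 1.00), which turned to 0.075 with median scaling and to 0.073 in the authors' value table. The ratio of Ccne1 to Ccnd3 within arrays was 3.59-fold higher in CD44+ cells, without overlap. This pair, like that of E2f1 and E2f3, was picked after the values were seen. Each sets a gene already seen apart over a gene seen to overlap, so the lack of overlap is no separate evidence. Of the other ratios formed, Ccne1 to Cdk2 was 3.86-fold higher without overlap, and Ccnd2 to Cdk4 was 1.07-fold higher and overlapped between groups.

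Cdk4, a kinase partner of the D cyclins, was at 1.80 and 1.68 on the CD44+ arrays and at 1.18 and 0.93 on the CD44- arrays. The groups did not overlap, with the CD44+ arrays 0.11 apart and the CD44- arrays 0.25 apart. The log2 difference was 0.69 ± 0.44 (1.61-fold, adjusted p = 0.723 by limma) and ranged from 0.56 to 0.81 with 1 array left out. Cdk6, the other kinase partner, was at -2.57 and -2.07 against -1.96 and -2.87. The groups overlapped, with a log2 difference of 0.095 ± 0.51 (95% interval -1.07 to 1.26) whose sign turned with a 75th percentile taken over detected probes. Leaving out CD44- replicate 2 or 1 gave -0.36 or 0.55. Its second probe was not well above background on any array.

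**Figure D3:**
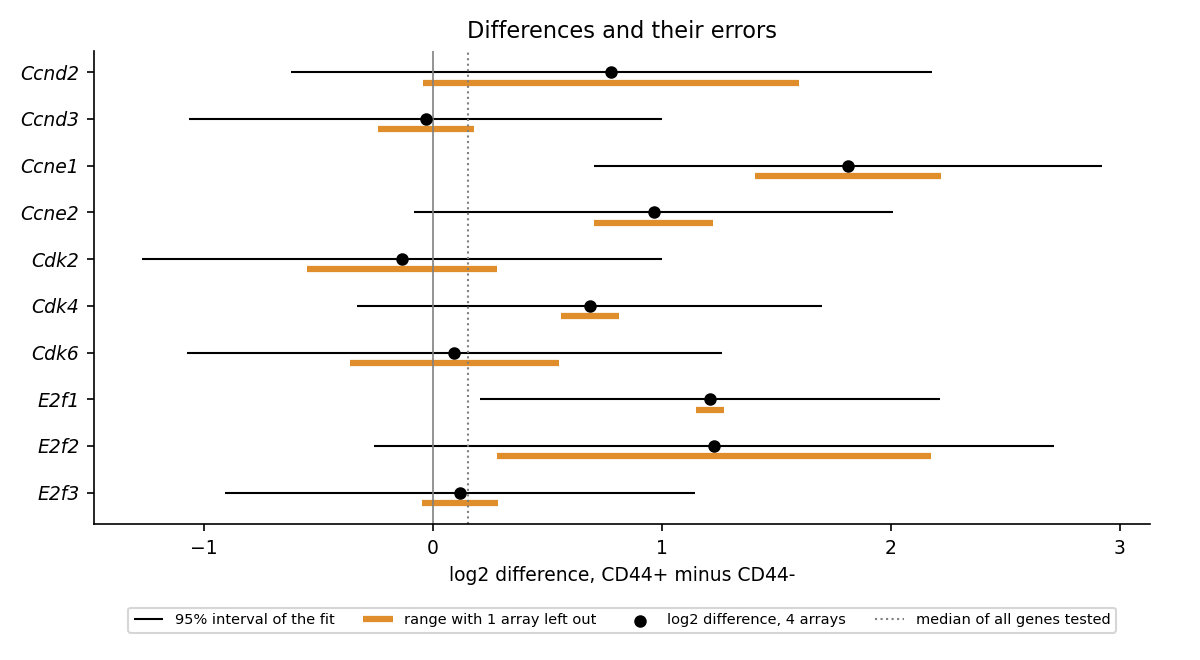
Log2 difference (CD44+ minus CD44-) of each gene with the 95% interval of the limma fit (black) and the range of the difference with 1 array left out (orange). The intervals of Ccne1 (0.70 to 2.92) and E2f1 (0.21 to 2.22) alone lie above 0, and the orange range is widest for E2f2 (0.28 to 2.18) and Ccnd2 (-0.040 to 1.60).

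**Figure D4:**
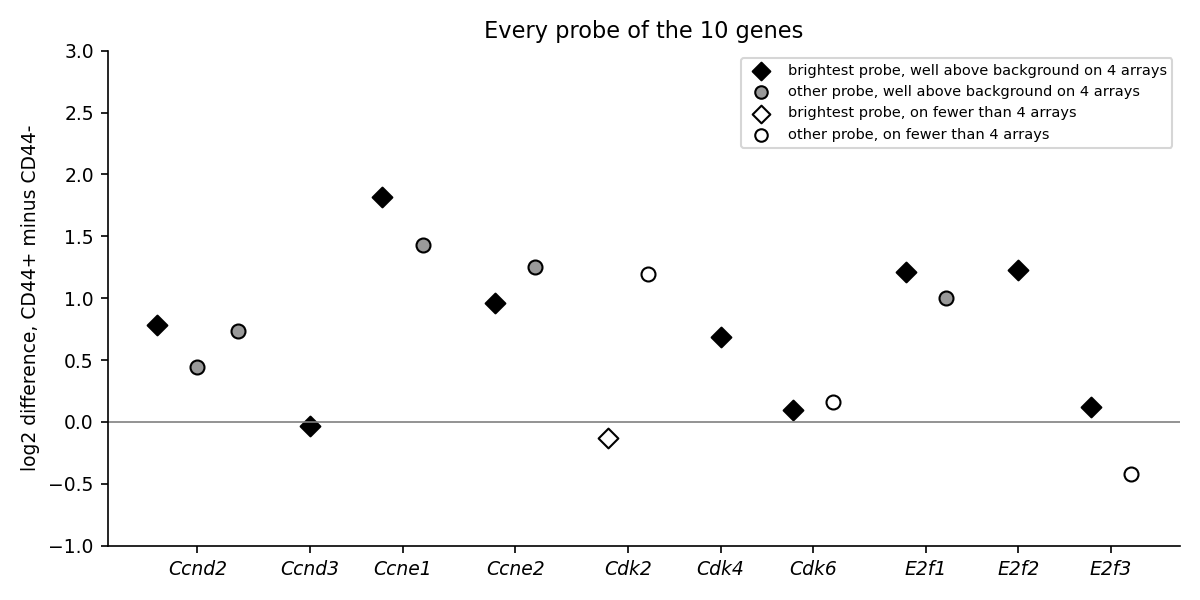
Log2 difference of each of the 18 probes by gene, with diamonds for the brightest probe, circles for the others and open symbols for probes well above background on fewer than 4 arrays. Probes of Ccnd2, Ccne1, Ccne2 and E2f1 lie on the same side of 0, and the dim second probes of Cdk2 and E2f3 lie on the other side from the brightest.

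Around these genes, 8 further lists of the pathway held 79 genes, of which 75 were tested. These lists, like the members, were chosen with earlier results of these data known, so their shares are descriptions and not tests. None of the 75 passed over all genes by limma, and 28 had an unadjusted p under 0.05, all of them higher in CD44+ cells, where 2.86% of all genes did so. Between 0 and 13 of them passed in the alternatives. Among pocket proteins, the signal of Rbl1 (p107), itself an E2F target, was at 1.83 and 0.90 against -0.14 and -0.15, with a log2 difference of 1.50 ± 0.49. Rb1 (0.31 ± 0.46) and Rbl2 (0.001 ± 0.53) overlapped between groups. Of 6 CDK inhibitors tested, 1 was apart higher, Cdkn2c (0.49 ± 0.44), an inhibitor of Cdk4 and Cdk6. The p53 target Cdkn1a (-1.05 ± 0.49, at 1.79 and 1.45 against 3.11 and 2.23) and Cdkn1b, which binds cyclin E with Cdk2 (-0.55 ± 0.46), were apart in the lower direction. Cdkn1b passed the background limit on 1 CD44+ array only and entered the test through the CD44- arrays, where it was higher, so its direction supports nothing. Of all genes 22.4% were apart higher and 17.2% lower. The list median was 0.001.

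The 5 repressive and atypical E2Fs were all apart in the higher direction, where 22.4% of all genes were, with a median of 0.77. The atypical factors differed most. E2f7 was at -0.62 and -0.59 on the CD44+ arrays against -2.49 and -2.45 on the CD44- arrays, so replicates nearly coincided, and the log2 difference was 1.87 ± 0.43 (3.65-fold, adjusted p = 0.142 by limma). E2f8 was at -0.071 and 0.45 against -1.81 and -2.07 (2.13 ± 0.46, 4.38-fold, adjusted p = 0.12), the largest difference among the 75 genes. E2f4, E2f5 and E2f6 differed by 0.77, 0.58 and 0.44. The DP subunits that pair with E2Fs, Tfdp1 and Tfdp2, differed by 0.51 and 0.48.

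Of 11 genes of CDK activation and cyclin turnover, 4 were apart higher and none lower, where 22.4% and 17.2% of all genes were. Their median was 0.51, and leaving out CD44- replicate 2 or 1 gave 0.198 or 1.015. The ubiquitin ligase subunit Skp2, which removes Cdkn1b, differed by 1.25 ± 0.45, and the CDK subunits Cks1b and Cks2 by 1.18 ± 0.46 and 1.02 ± 0.45. The phosphatase Cdc25a (0.37 ± 0.46) and the cyclin E ligase subunit Fbxw7 (-0.027 ± 0.44) overlapped between groups. Cdk1 and the cyclins of S, G2 and M phase, 6 genes in all, were each apart higher, where 22.4% of all genes were, with a median of 1.79. Their smallest p-values belonged to Cdk1 (2.08 ± 0.45, adjusted p = 0.124 by limma), Ccna2 (2.02 ± 0.47) and Ccnb1 (2.02 ± 0.51).

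Among 25 E2F target genes of S phase entry, all had a difference above 0, as 60.6% of all genes did, and 24 were apart higher, where 22.4% of all genes were, with a median of 1.27 and a range from 0.70 to 2.01. All 25 were well above background on all 4 arrays. The median ranged from 1.03 to 1.32 with 1 array left out. The ribonucleotide reductase subunit Rrm2 differed by 2.01 ± 0.47, the replication helicase factor Cdc45 by 1.89 ± 0.44 and the helicase subunit Mcm5 by 1.75 ± 0.44. Of the 22 of these genes with a promoter window, 9 held one of the 8-letter E2F sites (40.9%), against 2.60% of all genes. The list was made up of E2F targets, so a higher share follows from its making and is no separate evidence. The 17 other cyclins and CDKs, which act in transcription or outside the G1 step, had a median of 0.21, near that of all genes. Of these 17 genes, 6 were apart higher, where 22.4% of all genes were, and 3 lower, where 17.2% were. Their smallest p-values belonged to the splicing-linked cyclins Ccnl1 (-0.75 ± 0.47) and Ccnl2 (-0.64 ± 0.46) and to the transcriptional cyclin Ccnk (0.63 ± 0.48).

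**Figure D5:**
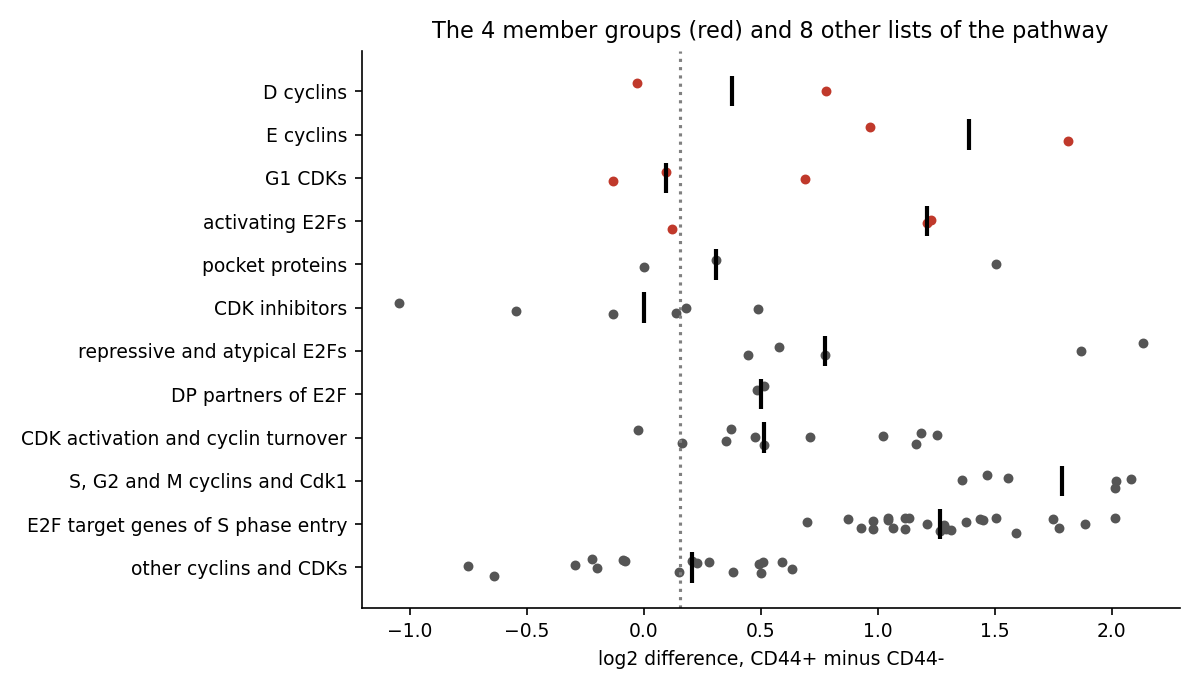
Log2 difference of each gene in the 4 groups of members (red) and in 8 other lists of the pathway (grey), with a bar at each list's median and a dotted line at the median of all genes tested (0.16). The E2F target genes lie from 0.70 to 2.01 and the other cyclins and CDKs from -0.75 to 0.63.

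The tested genes whose profile over the 4 arrays was most like that of Ccne1, the member with both the largest difference and the smallest p-value, were Hpdl, Cidea and Slc1a2. Likeness was the root mean square distance between log2 profiles centred on their own means, which was 0.10, 0.11 and 0.13. With 4 arrays such likeness is common, and 27 named genes lay within 0.25 of Ccne1.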

How the data were processed

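RNA was measured on 4 arrays. Amplification started from 25 ng of total RNA, and 0.2 ug of product was labelled with Cy3, per the labels' protocols, which can distort ratios between transcripts. The authors deposited scanner tables whose processed signal is a background-subtracted intensity, per the file headers, written by Agilent Feature Extraction 10.1.1.1. The submitters' processing notes name version 9.5. Other columns used were the deposited 0 or 1 flags. The authors' deposited value table holds a ratio to each probe's median after 1 factor per array (log2 differences matched for 10727 bright probes with an SD of at most 6.82e-05), so its scale, centring and direction are known, while how the factors were chosen is not. Its column medians were 0.853, 0.989, 0.928 and 0.739.

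Control and outlier spots were left out, spots of a probe were averaged on the log2 scale, and each array was scaled to its 75th percentile. Probes were named through a RefSeq table (GRCm38.p6), which matched 24375 of 41174 probes. A probe was tested if well above background on both arrays of a group, with the brightest probe per gene. Groups were compared with limma 3.58.1 in R 4.3.3 without covariates, with Benjamini-Hochberg adjustment over 21045 genes and calls at 0.05. The fit was tested on simulated data. The number of arrays limits the precision. All 4 arrays lie on 1 slide with 1 scan time, so neither could be a block. Alternatives were 15 other settings. The text names all 10 members, up to 3 genes per pathway list with the smallest p-value, a few others of these lists picked after their values were seen, and the 3 genes most like the leading member. Members and lists were chosen with earlier results of these data known.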

Additional observations from a re-analysis of the deposited data

How the results depend on the processing

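The 10 genes kept their side of the threshold in every alternative except 3 calls. Ccne1 passed with normexp on median signals (1.68, adjusted p = 0.03 by limma) and with the replicate number as a block, and E2f2 passed without CD44- replicate 1, so 1 member passed in each of these and 0 otherwise. Ccne1, Ccne2, Cdk4, E2f1 and E2f2 kept their sign in all 14 alternatives that fit 1 value per gene. Signs turned for the others. Ccnd3 was at 0.075 with median scaling and 0.073 in the authors' value table, and from -0.24 to 0.18 with 1 array left out. Cdk2 was at 0.061 with quantile normalization, 0.26 with normexp, and from -0.55 to 0.28 with 1 array left out. Cdk6 was at -0.037 and E2f3 at -0.013 with the 75th percentile over detected probes. With 1 array left out Cdk6 ranged from -0.36 to 0.55 and Ccnd2 from -0.040 to 1.60. E2f3 was at -0.15 as the median over its probes, -0.42 with its second probe, and from -0.048 to 0.28 with 1 array left out. With 1 array left out, the members' median ranged from 0.16 to 0.89 and that of the pathway lists from 0.62 to 1.05, with 0 to 1 members and 0 to 5 pathway genes called. Against 84 of all genes called with all arrays, 34 and 2 were called without CD44+ replicates 1 and 2, and 1569 and 449 without CD44- replicates 1 and 2. In the same order of all genes and pathway genes, calls were 748 and 7 with median scaling, 753 and 7 in the authors' value table and 540 and 5 with normexp. All genes called were 3 with the percentile over detected probes, 6 with quantile normalization and 24 with no filter, with 0 pathway genes in each. Median scaling moved all differences by 0.11 and raised the share of higher calls from 5.95% to 16.2%. Replicate numbers are shared between groups, but nothing in the labels says that they pair samples. The deviations of same-numbered arrays from their group means correlated at 0.347 over genes. With the replicate block 1829 genes passed, among them Ccne1 (1.81, adjusted p = 0.0073 by limma) as the 1 member, and 13 pathway genes. Normexp was run on median signals, an alternative added after the data were seen, in place of mean signals, and no slide block could be fitted. Signal over background limits Cdk2 and the second probes of Cdk6 and E2f3.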
